A study of Mus musculus with 6 samples.

Results

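The 35 genes described here make or regulate cholesterol and the lipids of myelin: 16 enzymes of sterol synthesis, 5 regulators of the SREBP pathway, 9 enzymes of fatty acid synthesis and 5 enzymes of galactolipid and sphingolipid synthesis. They were taken by symbol from the 24062 gene symbols of a count table, and 35 of 35 were found. All 35 were among the 16722 genes with enough counts to be tested. The lowest count of any of them in any library was 961, for Tm7sf2, and the highest was 209522, for Scd2.

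The study sequenced RNA of auditory nerves microdissected from young adult mouse cochleae. One group was labelled Vcan knockout (n = 3), a genotype given without the altered exons, the promoter of any Cre or the cells affected. Its counterpart was wildtype (n = 3). Both groups carry the strain label C57BL/6, no treatment is given for either, and each library pooled both cochleae of a mouse. Vcan encodes versican, a large proteoglycan of the extracellular matrix.

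Cholesterol is a main component of myelin, the layered membrane that Schwann cells wrap around the peripheral stretch of the auditory nerve and oligodendrocytes wrap around its central stretch. Glia make most of this cholesterol themselves, from acetyl-CoA through mevalonate, squalene and lanosterol. The transcription factors SREBP1 and SREBP2 are held in the endoplasmic reticulum while sterols are plentiful. When sterols run low, they are released to switch on genes of sterol and fatty acid synthesis. Myelin is also rich in galactosylceramide and its sulfated form, sulfatide, which carry very long and often hydroxylated fatty acids.

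Libraries held 74530860 to 92513887 counts. In the comparison of knockout with wildtype nerves, edgeR's quasi-likelihood test with Benjamini-Hochberg adjustment called 23 genes, 0.138% of those tested, at an adjusted p under 0.05, and DESeq2 called 252 of 18533, or 1.36%. An unadjusted p under 0.05 was found for 870 genes, or 5.2%. Vcan had 5.44, 2.70 and 2.88 CPM (counts relative to library size, scaled between libraries by TMM) in knockout nerves, against 8.37, 9.61 and 7.32 CPM in wildtype nerves. It was lower in every knockout library, with a log2 fold change of −1.20 (SE 0.32), which missed the threshold in edgeR (adjusted p = 0.558) and passed it in DESeq2 (adjusted p = 0.0342). Wildtype replicate 3 stood apart: its correlations with the other libraries were 0.9449 to 0.9546, the lowest of any library. Markers of the labelled tissue were abundant. Markers of myelinating Schwann cells summed to 5519 to 7587 CPM in knockout nerves and 5135 to 7962 CPM in wildtype nerves, and neuronal markers to 9756 to 11680 CPM and 6461 to 12160 CPM in the same groups.

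No lipid synthesis gene passed edgeR's test over all genes, 0 of 35 against the 0.138% of all genes called. DESeq2 called 1 of them, Sc5d, which was also the 1 member past the threshold in the authors' deposited table, where 1.34% of genes passed. An unadjusted edgeR p under 0.05 was found for 2 of 35, Sc5d and Hsd17b7, or 5.71% of the list against 5.2% of all genes. Those same 2 genes were the ones whose knockout libraries all lay below the wildtype libraries, an arrangement held by 4.93% of all genes, and no member lay above in all knockout libraries, which 5.42% of all genes did. In either direction, 10.3% of all genes did not overlap. The log2 fold changes ran from −0.86 for Sc5d to 0.39 for Gal3st1, with a median of −0.07, beside −0.01 for all genes tested. Of the 35, 25 were below 0, or 71.4%, against 51.1% of all genes. Among the 16 sterol genes 13 were below 0, or 81.2%, and 2, or 12.5%, had an unadjusted p under 0.05. For 31 of the 35, the 95% interval of the fold change stayed within a 2-fold difference in either direction. It did so for 10770 of the 16722 genes tested. In a bulk sample, fewer cells of a type and less RNA per cell cannot be told apart.

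**Figure D1:**
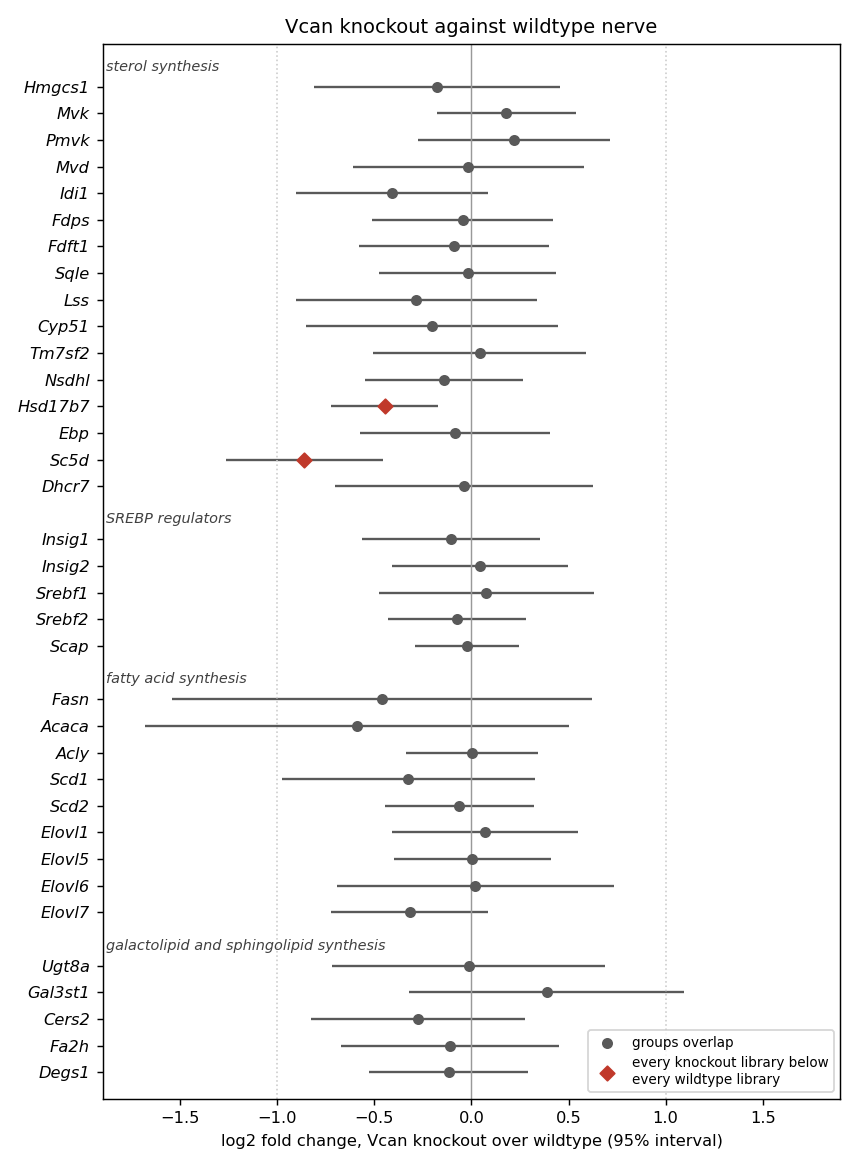
Log2 fold change of each of the 35 genes, Vcan knockout over wildtype, with its 95% interval from edgeR (n = 3 libraries in each group), by role in the pathway. Dotted lines mark 2-fold differences, and red diamonds mark Sc5d and Hsd17b7, whose knockout libraries all lay below the wildtype libraries, while the other intervals include 0.

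Levels per length spanned a wide range. Scd2, a stearoyl-CoA desaturase of brain and nerve, had the highest level, with 385 ± 9.46 RPKM (scaled CPM divided by kilobases of exon) in knockout nerves and 403 ± 26.5 RPKM in wildtype nerves (SD, n = 3 each). It gave 33% to 34.9% of the summed CPM of the 35 genes in every library. Scd1 followed with 94.8 ± 11.4 RPKM in knockout nerves and 119 ± 43.5 RPKM in wildtype nerves. Hmgcs1, Elovl5, Ugt8a, Degs1 and Acly came next, from 76.6 RPKM for Hmgcs1 to 59.3 RPKM for Acly in knockout nerves and from 86.7 RPKM to 59.2 RPKM for the same genes in wildtype nerves. For each pair of neighbours in that order, the ranges of mean ± SD overlapped in at least 1 of the groups. The lowest levels per length were those of Lss, 2.07 ± 0.77 RPKM in knockout nerves and 2.52 ± 0.18 RPKM in wildtype nerves. Tm7sf2 and Acaca were also under 5 RPKM in both groups. Exon bases were pooled over all annotated transcripts of a gene, 10787 for Lss, so these ranks depend on the annotation. By mean CPM over all libraries, Lss (24.73) was above Tm7sf2 (15.75). Together the 35 genes took 0.605% to 0.617% of the counts in knockout libraries and 0.624% to 0.688% in wildtype libraries.

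**Figure D2:**
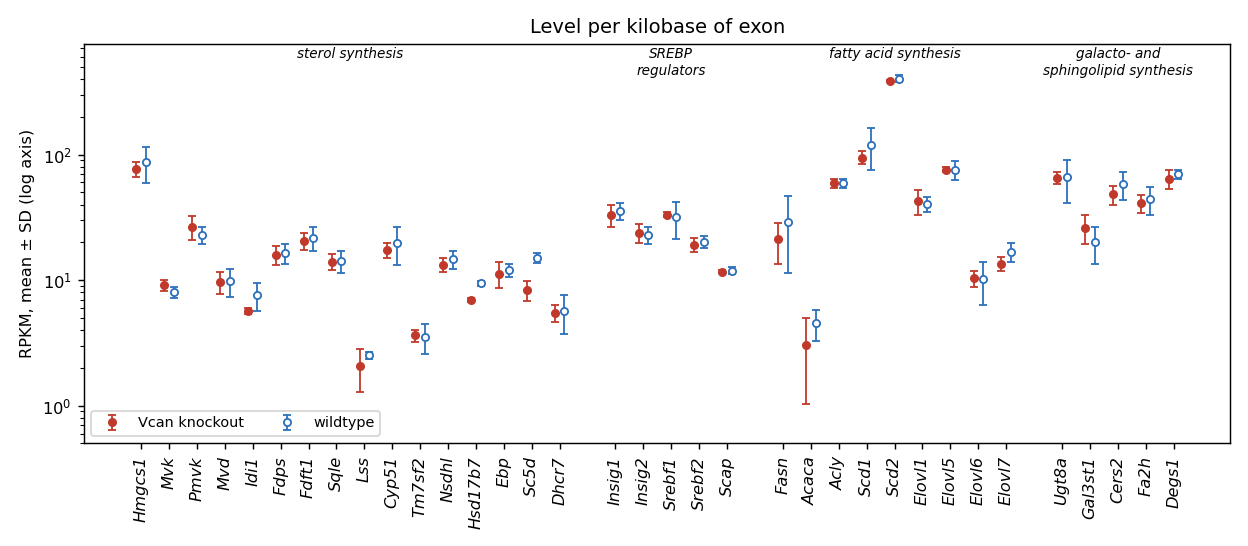
Level per kilobase of exon (RPKM, log axis, mean ± SD, n = 3 libraries) of each gene in Vcan knockout and wildtype nerves, ordered by role and by step of the pathway. Scd2 stood at 385 RPKM in knockout and 403 RPKM in wildtype nerves, and Lss at 2.07 RPKM in knockout and 2.52 RPKM in wildtype nerves.

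Sc5d, the desaturase that makes the direct substrate of the last enzyme of the pathway, Dhcr7, had the largest difference in either direction. It is GeneID 235293, at chr9:42251592-42264300 of GRCm38. Sc5d had 48.9, 36.3 and 35.8 CPM in knockout nerves, against 74.3, 79.4 and 66.0 CPM in wildtype nerves. Every knockout library was below every wildtype library, and knockout replicate 1 was the highest of its group. The means were 40.3 ± 7.43 CPM in knockout and 73.2 ± 6.72 CPM in wildtype nerves (SD, n = 3 each), a ratio of 0.551. The log2 fold change was −0.86 (SE 0.17, 95% interval −1.26 to −0.46), with an adjusted p of 0.264 in edgeR and 0.00545 in DESeq2. In the authors' deposited table its adjusted p was 0.00521. With each library left out in turn the log2 fold change was −1.02 to −0.79, and edgeR's adjusted p was 0.142 to 0.96.

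Hsd17b7, a keto reductase that works with Nsdhl in removing methyl groups from the sterol ring, was the other gene without overlap. It is GeneID 15490, at chr1:169949535-169969242. Hsd17b7 had 34, 35.1 and 36.7 CPM in knockout nerves, against 46.5, 46.9 and 50.9 CPM in wildtype nerves. Both groups were tight, with SDs of 1.36 CPM in knockout and 2.46 CPM in wildtype nerves around means of 35.3 and 48.1 CPM in the same order. The log2 fold change was −0.45 (SE 0.12, 95% interval −0.72 to −0.17), and the adjusted p was 0.504 in edgeR and 0.129 in DESeq2. It was 0.122 in the authors' deposited table. Leaving out any library moved the value only between −0.49 and −0.41.

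Summed markers of some other cells had the same arrangement as these 2 genes. Astrocyte markers summed to 687, 714 and 473 CPM in knockout nerves, against 1009, 1320 and 748 CPM in wildtype nerves, without overlap, and 8 of 8 had a log2 fold change below 0. Macrophage and microglia markers summed to 145 to 182 CPM in knockout nerves and 207 to 212 CPM in wildtype nerves, also without overlap, with 7 of 10 below 0. Singly, 3 of 8 astrocyte markers and 3 of 10 macrophage and microglia markers lay below in all knockout libraries, against 4.93% of all genes. No marker of either list was at 0 in any library. The small sum of adipocyte markers, 7.74 to 10.1 CPM in knockout and 11.1 to 12.3 CPM in wildtype nerves, did not overlap either. That sum was mostly Lpl, and of 3 adipocyte markers tested, 2 had a log2 fold change below 0. Oligodendrocyte markers overlapped in their sums, 282 to 401 CPM in knockout and 355 to 777 CPM in wildtype nerves. Singly, 2 of 11 of them lay below in all knockout libraries. The part of these cell types in the difference of Sc5d and Hsd17b7 was not tested.

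The promoters of Sc5d and Hsd17b7 are shown because these genes had the clearest difference, and that of Hmgcs1, which encodes the synthase at the head of the pathway, because it held the sterol element spelled TCACNCCAC. Each is the RefSeq sequence of GRCm38.p6 from 250 bases before to 50 bases after the transcript start that the RefSeq promoter table uses, 5′ to 3′ on the gene's strand. For Hsd17b7 that start lies inside the outer end of the gene given above. Capitals mark CACGTG (the E-box), ATTGG (the nuclear factor Y box CCAAT, read on the other strand) and TCACCCCAC (a match to TCACNCCAC). The windows lie at chr9:42264251-42264550 (minus strand), chr1:169969156-169969455 (minus strand) and chr13:119690101-119690400 (plus strand), in the order printed.
Sc5d: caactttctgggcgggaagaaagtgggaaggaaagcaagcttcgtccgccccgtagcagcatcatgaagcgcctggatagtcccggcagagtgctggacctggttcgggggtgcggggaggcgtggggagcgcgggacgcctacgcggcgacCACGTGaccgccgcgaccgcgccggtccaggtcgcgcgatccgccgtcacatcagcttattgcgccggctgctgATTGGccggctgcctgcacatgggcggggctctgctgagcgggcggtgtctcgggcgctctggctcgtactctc
Hsd17b7: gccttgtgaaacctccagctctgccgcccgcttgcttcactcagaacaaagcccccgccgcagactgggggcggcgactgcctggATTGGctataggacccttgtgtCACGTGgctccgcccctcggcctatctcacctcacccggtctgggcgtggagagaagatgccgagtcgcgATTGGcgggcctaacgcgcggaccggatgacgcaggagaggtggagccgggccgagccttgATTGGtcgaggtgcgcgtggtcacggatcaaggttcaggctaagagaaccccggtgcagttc
Hmgcs1: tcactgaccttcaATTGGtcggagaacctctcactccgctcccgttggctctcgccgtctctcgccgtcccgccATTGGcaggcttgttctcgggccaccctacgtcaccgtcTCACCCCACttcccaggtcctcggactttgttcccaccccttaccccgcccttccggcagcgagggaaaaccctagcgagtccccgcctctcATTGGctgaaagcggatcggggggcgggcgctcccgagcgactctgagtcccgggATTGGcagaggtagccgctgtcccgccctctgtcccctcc
Sc5d and Hsd17b7 each carried CACGTG and CCAAT, with the first base of CACGTG at −98 in Sc5d and at −143 in Hsd17b7, counted from those transcript starts. A promoter was matched for 29 of the 35 genes, and not for Fdps, Fdft1, Sqle, Scd1, Scd2 or Fa2h. On either strand, CCAAT was in 23 of 29, or 79.31%, against 41.06% of the promoters of 27025 genes, and in 13 of 13 matched genes of sterol synthesis. CACGTG was in 8 of 29 (27.59% against 8.09%), 3 of them sterol genes, Hsd17b7, Sc5d and Dhcr7. TCACNCCAC was in Hmgcs1 alone, 3.45% of the 29 against 1.44% of all. Matches of different motifs did not overlap in the windows printed. A match describes the letters of the window and was not tested as a site.

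The first steps of sterol synthesis overlapped between the groups. Hmgcs1, at chr13:119690351-119708260, had 295, 387 and 374 CPM in knockout nerves, against 428, 507 and 260 CPM in wildtype nerves. Wildtype replicate 3 was the lowest of all libraries and the remaining wildtype libraries the highest. Its log2 fold change was −0.18 (SE 0.27, 95% interval −0.81 to 0.46, edgeR adjusted p = 1). Mvk, mevalonate kinase, had 21.8, 24.5 and 26.9 CPM in knockout nerves, against 20.7, 24.1 and 19.8 CPM in wildtype nerves. Pmvk, phosphomevalonate kinase, had 34.3, 49.6 and 53.0 CPM in knockout nerves, against 37.1, 46.1 and 34.4 CPM in wildtype nerves. These kinases were the sterol genes with the highest log2 fold changes, 0.18 (SE 0.15) for Mvk and 0.22 (SE 0.21) for Pmvk, and their groups overlapped. Mvd, the decarboxylase that completes isopentenyl diphosphate, averaged 18.0 ± 3.74 CPM in knockout nerves and 18.3 ± 4.67 CPM in wildtype nerves.

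Idi1, the isomerase that supplies the other building block of farnesyl diphosphate, had 19.98, 21.2 and 18.9 CPM in knockout nerves, against 29.6, 31.0 and 19.0 CPM in wildtype nerves. Only wildtype replicate 3 lay in the knockout range. The log2 fold change was −0.41 (SE 0.21, edgeR adjusted p = 1), and without that library it was −0.61 (SE 0.12, adjusted p = 0.286). A share of 21.3% of the 50-base stretches of its transcript also occurs at other loci, with Gm13502 the most frequent. How the authors' counting handled such reads was not stated, so the level of Idi1 is uncertain.

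The enzymes that make farnesyl diphosphate, squalene and its epoxide lay close to 0, and Lss, which makes lanosterol, lay at −0.28 on the log2 scale. Fdps, farnesyl diphosphate synthase, averaged 67.0 ± 11.3 CPM in knockout nerves and 69.2 ± 12.8 CPM in wildtype nerves. Fdft1, squalene synthase, averaged 86.8 ± 13.1 CPM in knockout nerves and 92.3 ± 20.5 CPM in wildtype nerves. Sqle, squalene epoxidase, averaged 77.7 ± 11.2 CPM in knockout nerves and 78.8 ± 15.6 CPM in wildtype nerves. For all 3 the groups overlapped, with log2 fold changes of −0.05 for Fdps, −0.09 for Fdft1 and −0.02 for Sqle. Exons of Fdps share 26.7% of their bases with other genes, the largest overlap being with Gm43738 on the same strand. Those of Fdft1 share 18.3%, the largest overlap being with Ctsb on the opposite strand. With strand and the handling of shared reads not stated, the levels of both are uncertain. The same limit holds for Scap (13.2%), Hmgcs1 (12.1%) and Tm7sf2 (12.1%, the largest overlap being with Vps51 on the same strand). Lss, lanosterol synthase, had 31.9, 18.2 and 16.8 CPM in knockout nerves, against 29.2, 25.4 and 26.9 CPM in wildtype nerves. Knockout replicate 1 was the highest of all libraries and the other knockout libraries the lowest. The log2 fold change of Lss was −0.28 (SE 0.26), and −0.63 (SE 0.14, edgeR adjusted p = 0.352) without knockout replicate 1.

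After lanosterol, the groups overlapped for every enzyme other than Hsd17b7 and Sc5d. Cyp51, the lanosterol demethylase, had 64.1, 82.7 and 81.9 CPM in knockout nerves, against 94.6, 114 and 55.0 CPM in wildtype nerves, with the lowest and the highest value both in wildtype. Dhcr7, which makes cholesterol in the final step, had 26.5, 35.8 and 33.7 CPM in knockout nerves, against 34.4, 43.5 and 20.8 CPM in wildtype nerves. It had the same arrangement, and its log2 fold change was −0.04 (SE 0.28). Tm7sf2, the sterol reductase that acts after Cyp51, averaged 16.0 ± 1.83 CPM in knockout nerves and 15.5 ± 4.08 CPM in wildtype nerves. Nsdhl, a dehydrogenase of the demethylation complex, averaged 37.9 ± 4.69 CPM in knockout nerves and 41.8 ± 6.56 CPM in wildtype nerves. Ebp, a sterol isomerase, averaged 26.1 ± 5.95 CPM in knockout nerves and 27.6 ± 3.30 CPM in wildtype nerves. Their log2 fold changes were 0.04 for Tm7sf2, −0.14 for Nsdhl and −0.08 for Ebp, each within its own SE of 0.

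**Figure D3:**
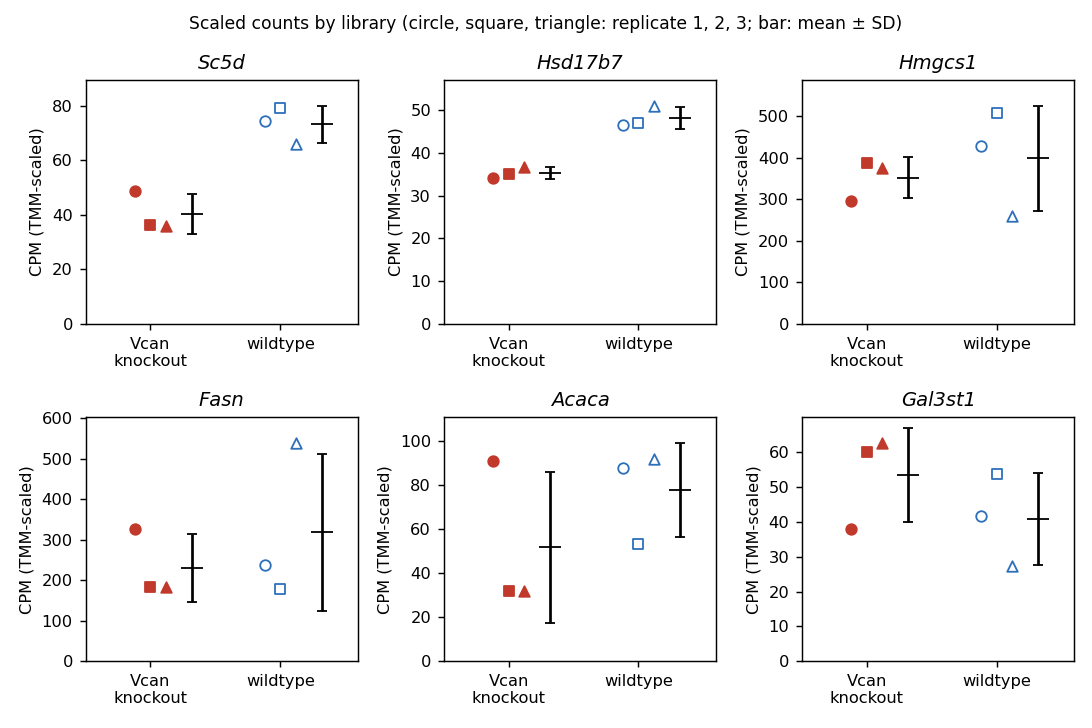
Scaled counts (CPM, linear axes from 0) of 6 genes in each library, with Vcan knockout left of wildtype and the mean ± SD beside each group of 3. Sc5d and Hsd17b7 do not overlap, wildtype replicate 3 is lowest for Hmgcs1 and Gal3st1 and highest for Fasn, and knockout replicate 1 is the highest knockout library for Acaca.

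Most sterol genes shared an order of libraries that cut across the groups. Of the 16, 11 were highest in wildtype replicate 2, where 11.8% of all genes were highest, and 13 were lowest in knockout replicate 1 or wildtype replicate 3, where 48.9% of all genes were lowest. Knockout replicate 1 lay below the other knockout libraries for 13 of 16, against 45% of all genes. Wildtype replicate 3 lay below the other wildtype libraries for 12 of 16, against 41.2% of all genes. The median deviation of the 16 genes from their mean log2 CPM was −0.28, 0.08 and 0.10 in knockout nerves and 0.07, 0.31 and −0.27 in wildtype nerves.

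Markers of myelin and of the glia that make it had a like order. Astrocyte markers shared it among the wildtype libraries but not among the knockout libraries, where replicate 3 was lowest (473 CPM). Neuronal markers were also lowest in wildtype replicate 3, with 12160, 10280 and 6461 CPM in wildtype nerves. In knockout nerves they summed to 11680, 9756 and 10030 CPM, with replicate 1 highest. The myelin genes that both glia express, 7 in number, summed to 5943, 9004 and 8087 CPM in knockout nerves, against 8713, 12830 and 6422 CPM in wildtype nerves, with 4 of 7 log2 fold changes below 0. Schwann cell markers summed to 5519, 7188 and 7587 CPM in knockout nerves, against 7848, 7962 and 5135 CPM in wildtype nerves, with 7 of 10 below 0. Oligodendrocyte markers summed to 282, 401 and 313 CPM in knockout nerves, against 527, 777 and 355 CPM in wildtype nerves, with 11 of 11 below 0 and a median of −0.64. In the myelin, Schwann cell and oligodendrocyte sums, knockout replicate 1 was the lowest knockout library and wildtype replicate 3 the lowest wildtype library. None of those markers was at 0 in any library. The part of these cell types in the values of the sterol genes was not tested.

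Without wildtype replicate 3, the median log2 fold change of the 16 sterol genes was −0.22, against −0.09 with all libraries. Leaving out knockout replicate 1 gave 0.05, and leaving out wildtype replicate 2 gave 0.06. Leaving out wildtype replicate 3 gave an unadjusted edgeR p under 0.05 for 6 of the 35 genes, against 7.23% of 16957 genes tested. They were Hmgcs1 at −0.42, Idi1 at −0.61, Cyp51 at −0.46, Hsd17b7 at −0.41, Sc5d at −0.93 and Srebf1 at 0.37 on the log2 scale. Their adjusted p-values in edgeR were 0.286 to 0.674, so none passed. Leaving out knockout replicate 1 gave such a p for 4 of 35, Lss, Hsd17b7, Sc5d and Acaca, against 10.4% of 16941 genes.

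**Figure D4:**
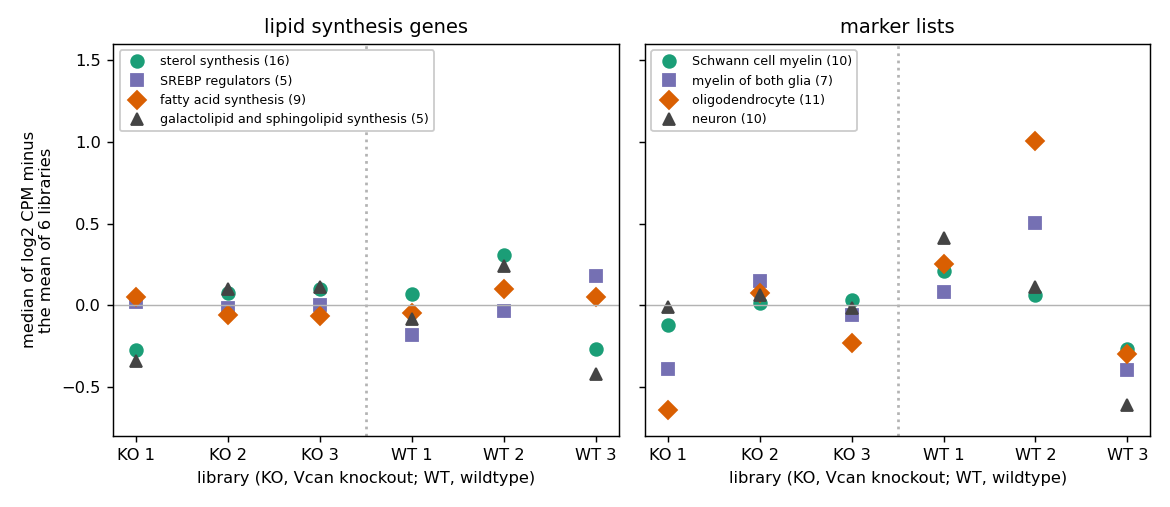
Median deviation of each gene list from the mean log2 CPM of the 6 libraries, by library, with Vcan knockout (KO) left of wildtype (WT) and the number of genes in parentheses. Sterol genes and myelin markers were low in knockout replicate 1 and wildtype replicate 3, and sterol genes were highest in wildtype replicate 2, at 0.31.

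The regulators of the SREBP pathway had log2 fold changes between −0.11 and 0.08, and the groups overlapped for all of them. Srebf2 encodes SREBP2, the main activator of sterol genes, and had 157, 127 and 129 CPM in knockout nerves, against 162, 137 and 135 CPM in wildtype nerves, a log2 fold change of −0.07 (SE 0.15). Scap, the escort protein that carries SREBPs to the Golgi, averaged 87.1 ± 2.05 CPM in knockout nerves and 88.5 ± 5.43 CPM in wildtype nerves. Its interval, −0.29 to 0.25, was the narrowest of the 35. Insig1 and Insig2 encode the proteins that hold Scap in the endoplasmic reticulum. Insig1, itself a target of SREBPs, had 86.5, 126 and 96.2 CPM in knockout nerves, against 93.1, 110 and 128 CPM in wildtype nerves. Insig2 averaged 82.6 ± 14.6 CPM in knockout nerves and 80.0 ± 12.9 CPM in wildtype nerves. Knockout replicate 1 was lowest for Insig1 and level with wildtype replicate 1 for Insig2.

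Srebf1, which encodes SREBP1, had 197, 178 and 188 CPM in knockout nerves, against 144, 145 and 245 CPM in wildtype nerves. The knockout libraries lay between the lower pair of wildtype libraries and wildtype replicate 3. With all libraries the log2 fold change was 0.08 (SE 0.23), and it was 0.37 (SE 0.11, edgeR adjusted p = 0.507) without that library. Of the 5 regulators, 3 were below 0, and their median was −0.02.

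Fatty acid synthesis held the genes with the widest spread between libraries. Fasn, fatty acid synthase, had 328, 183 and 183 CPM in knockout nerves, against 238, 178 and 539 CPM in wildtype nerves, a range of 3.02-fold. Wildtype replicate 3 was the highest, wildtype replicate 2 the lowest, and the groups overlapped. Its log2 fold change was −0.46 (SE 0.45), and 0.15 without wildtype replicate 3. Scd1, a stearoyl-CoA desaturase, had 524, 454 and 414 CPM in knockout nerves, against 428, 490 and 824 CPM in wildtype nerves, and wildtype replicate 3 was again highest. Without that library its log2 fold change was 0.01, against −0.32 (SE 0.27) with all. Scd2, by contrast, stayed within 2057, 2159 and 2097 CPM in knockout nerves and 2045, 2332 and 2221 CPM in wildtype nerves, a log2 fold change of −0.06 (SE 0.16).

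Genes outside the 35 that were also high in wildtype replicate 3 were found after their values were seen. Acacb, the acetyl-CoA carboxylase of the mitochondrial surface, had 30.1, 18.0 and 15.1 CPM in knockout nerves, against 14.9, 11.1 and 95.5 CPM in wildtype nerves. Fads2, a fatty acid desaturase, had 71.9 CPM and Thrsp, a lipogenic gene, 25.3 CPM in wildtype replicate 3, each the highest of its libraries. In the same list of fatty acid genes, Fads1, Fads3, Hacd2, Acsl1, Acsl3 and Acsl4 were also highest in that library. Acss2, Me1, Elovl4, Tecr, Hacd1, Hacd3, Mlxipl and Acsl6 were lowest there. Of all genes tested, 26% were highest and 28.5% lowest in wildtype replicate 3. Defining markers of adipocytes were near 0: Adipoq, which encodes adiponectin, had 0.422, 0.152 and 0.429 CPM in knockout nerves, against 0.252, 0.0223 and 0.0117 CPM in wildtype nerves. Of that list, Plin1 was at 0 in 2 libraries, Cidec in 1, Cfd in 3 and Lep in 5, and the 9 markers summed to 7.74 to 10.1 CPM in knockout nerves and 11.1 to 12.3 CPM in wildtype nerves, mostly Lpl.

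Acaca, the acetyl-CoA carboxylase that supplies malonyl-CoA to Fasn, lies at chr11:84129635-84401651. It had 91.0, 32.1 and 31.9 CPM in knockout nerves, against 87.8, 53.1 and 91.9 CPM in wildtype nerves. Knockout replicate 1 lay with the wildtype libraries and the other knockout libraries lay below them all. On the log2 scale the difference was −0.59 (SE 0.46), and −1.28 (SE 0.26, edgeR adjusted p = 0.321) without knockout replicate 1. Of the 50-base stretches of its longest transcript, 52.6% also occur at other loci, with Gm5182 the most frequent, so its level is uncertain. Acaca, Fasn and Lss were the members among the 1592 genes with the most exon bases (at least 9593), and in each of them knockout replicate 1 was the highest knockout library and wildtype replicate 2 the lowest wildtype library. Those 1592 genes had median deviations of 0.28, −0.18 and −0.20 in knockout nerves and 0.16, −0.15 and 0.10 in wildtype nerves. The part of gene length in the values of these 3 genes was not tested.

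The other fatty acid enzymes overlapped between the groups. Acly, which makes cytosolic acetyl-CoA from citrate, averaged 313 ± 24.8 CPM in knockout nerves and 313 ± 26.4 CPM in wildtype nerves, a log2 fold change of 0.00 with an interval of −0.34 to 0.34. Elovl1, an elongase of very long saturated fatty acids, averaged 116 ± 25.4 CPM in knockout nerves and 111 ± 15.0 CPM in wildtype nerves. Elovl5, which elongates polyunsaturated fatty acids, averaged 267 ± 11.5 CPM in knockout nerves and 267 ± 46.5 CPM in wildtype nerves. These 3 means differed by less than the SD of either group. Elovl6, which elongates palmitate, had 77.4, 58.0 and 64.3 CPM in knockout nerves, against 84.7, 74.1 and 38.0 CPM in wildtype nerves, where wildtype replicate 3 was lowest. Elovl7, another elongase of long acyl chains, had 47.9, 61.1 and 53.7 CPM in knockout nerves, against 58.3, 64.4 and 80.2 CPM in wildtype nerves. Its log2 fold change was −0.32 (SE 0.17, edgeR adjusted p = 1). Of the 9 fatty acid genes, 5 were below 0, with a median of −0.06.

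**Figure D5:**
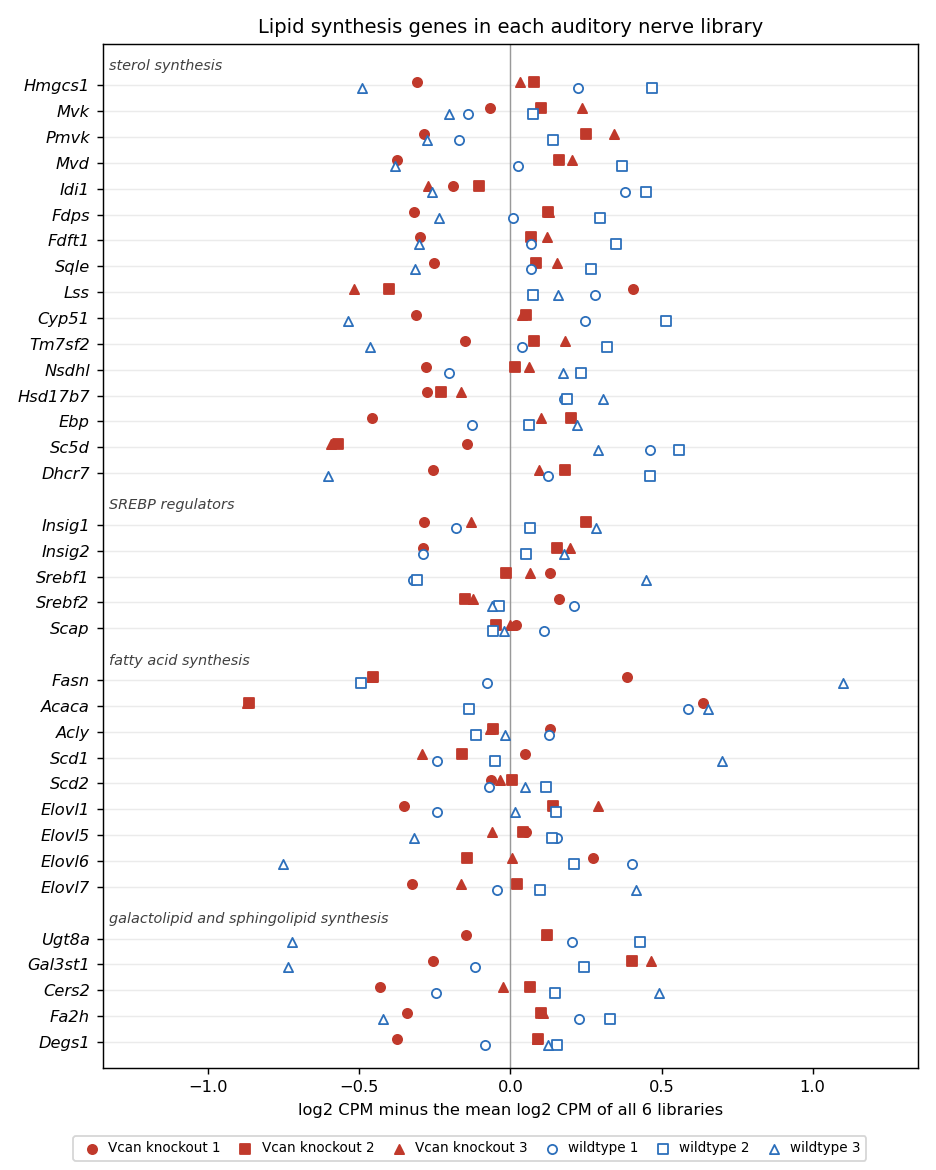
Deviation of each gene in each library from its mean log2 CPM over the 6 libraries, with filled red symbols for Vcan knockout, open blue symbols for wildtype, and the shape giving the replicate. Sterol genes cluster low in knockout replicate 1 and wildtype replicate 3, Fasn and Scd1 are highest in wildtype replicate 3, and Sc5d and Hsd17b7 are the rows whose red and blue symbols do not mix.

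Galactolipid synthesis was represented by Ugt8a, Gal3st1 and their ceramide suppliers. Ugt8a, which makes galactosylceramide, had 261, 314 and 313 CPM in knockout nerves, against 333, 389 and 175 CPM in wildtype nerves. The lowest and the highest value were both in wildtype, and the log2 fold change was −0.01 (SE 0.29, 95% interval −0.72 to 0.69). Gal3st1, the sulfotransferase that turns galactosylceramide into sulfatide, had 37.9, 59.8 and 62.4 CPM in knockout nerves, against 41.7, 53.6 and 27.2 CPM in wildtype nerves. Its log2 fold change of 0.39 (SE 0.30, edgeR adjusted p = 1) was the highest of the 35, with overlapping groups. With each library left out in turn it was 0.16 to 0.63.

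Fa2h, which hydroxylates the fatty acids of galactolipids, had 99.0, 134 and 135 CPM in knockout nerves, against 147, 157 and 93.6 CPM in wildtype nerves. Cers2, the ceramide synthase for very long acyl chains, had 142, 200 and 188 CPM in knockout nerves, against 161, 212 and 269 CPM in wildtype nerves. Degs1, the desaturase that completes ceramide, averaged 166 ± 29.1 CPM in knockout nerves and 180 ± 15.7 CPM in wildtype nerves. For all 3 the groups overlapped, at log2 fold changes of −0.11, −0.28 and −0.12 in the order given. Wildtype replicate 3 was lowest for Ugt8a, Gal3st1 and Fa2h and highest for Cers2, so these 5 genes did not share a single order. Of the 5, 4 were below 0, with a median of −0.11. That median was 0.02 with knockout replicate 1 left out and 0.03 with wildtype replicate 2 left out.

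Another 64 genes of the same pathways were listed, of which 62 were tested, Elovl3 and Cers1 being too low. None passed edgeR's test or DESeq2's, and 3 of 62 had an unadjusted edgeR p under 0.05, or 4.84% against 5.2% of all genes. Of the 62, 33 were below 0, or 53.2% against 51.1% of all genes. In every knockout library 3 of them lay below, where 4.93% of all genes did, and 4 above, where 5.42% did. In sterol synthesis and uptake, Mbtps1, a protease that cleaves SREBPs, averaged 156 ± 21.9 CPM in knockout nerves and 163 ± 27.5 CPM in wildtype nerves. In that list 5 of 10 were below 0.

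Genes of cholesterol export and turnover had log2 fold changes of −0.30 to 0.31. Apoe, which encodes the main apolipoprotein of nervous tissue, averaged 1631 ± 256 CPM in knockout nerves and 1523 ± 279 CPM in wildtype nerves. Npc2, which carries cholesterol out of lysosomes, averaged 158 ± 32.4 CPM in knockout nerves and 167 ± 37.6 CPM in wildtype nerves. In the export and turnover list 7 of 12 were below 0. Among the fatty acid genes outside the 35, 11 of 19 were below 0. The most abundant, Tecr, the last reductase of elongation, averaged 720 ± 151 CPM in knockout nerves and 591 ± 104 CPM in wildtype nerves. Acsl3, an acyl-CoA synthetase, averaged 252 ± 37.6 CPM in knockout nerves and 245 ± 54.2 CPM in wildtype nerves.

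In the sphingolipid list 8 of 15 were below 0. Asah1, acid ceramidase, had 88.2, 99.3 and 94.8 CPM in knockout nerves, against 110, 124 and 139 CPM in wildtype nerves. All knockout libraries were below all wildtype libraries, with a log2 fold change of −0.40 (SE 0.13, edgeR adjusted p = 0.764). Smpd1, acid sphingomyelinase, averaged 107 ± 1.17 CPM in knockout nerves and 127 ± 37.4 CPM in wildtype nerves. The remaining genes with an unadjusted p under 0.05, named after their values were seen, were Sgms2, a sphingomyelin synthase, at 0.54 (SE 0.20, edgeR adjusted p = 0.867), and Elovl2, an elongase of polyunsaturated fatty acids, at −1.05 (SE 0.37, edgeR adjusted p = 0.805) with 1.71 ± 0.73 CPM in knockout nerves and 3.54 ± 0.61 CPM in wildtype nerves. Of 6 plasmalogen genes, 2 were below 0. Far1, a fatty acyl-CoA reductase, averaged 201 ± 13.2 CPM in knockout nerves and 211 ± 7.71 CPM in wildtype nerves. Peds1, the plasmanylethanolamine desaturase, averaged 122 ± 24.4 CPM in knockout nerves and 130 ± 12.4 CPM in wildtype nerves.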

How the data were processed

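The submitters' processing notes name mm10, HTSeq and DESeq2. Settings for read length, strand and shared reads were not given in the sources used here. The deposited table holds the authors' raw counts per gene for 6 libraries, 24067 rows for 24062 symbols (5 on 2 rows, joined). Per the file headers it also holds the authors' mean normalised counts (a signal), log2 fold change with its SE, a test statistic (a score), p-value and adjusted p-value, used only where named.

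Genes kept by filterByExpr (16722) were fitted in R 4.3.3 with edgeR 4.0.16: TMM scaling (factors 0.964 to 1.02), robust quasi-likelihood F tests, 2-sided, no covariate, Benjamini-Hochberg adjustment over all genes and a threshold of 0.05. The SE was the log2 fold change divided by the square root of F. RPKM divides TMM-scaled CPM by exon bases of GENCODE vM21, and coordinates are RefSeq's for GRCm38.p6, by GeneID. Log2 CPM had a prior count of 1. The code was tested on simulated counts. Alternatives were DESeq2 1.42.0, 3 other scalings, no filter, the replicate number as a block and leaving out each library. No pair of libraries agreed within sampling noise. The members and lists were chosen with earlier results of these data known. Named were all 35 members, Vcan, and of each other list those past the threshold or else the 2 of highest mean CPM. Part of the values for the other sterol genes is not reported here. Sharing of sequence is the percentage of 50-base stretches of a gene's longest transcript found at any other locus.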

Additional observations from a re-analysis of the deposited data

How the results depend on the processing

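DESeq2 called 252 genes and 1 of the 35 lipid synthesis genes, against 23 and 0 in edgeR, and leaving out each library in turn gave 3 to 14 genes, with 0 of the 35 and 0 of the 62 other pathway genes in each case. The replicate block gave 3 genes called and 0 of either list. Same-numbered samples did not all deviate together (correlations 0.416, 0.202 and −0.149), nor did every sample correlate best with its own number, so the numbers were not taken as pairs. Under the replicate block the log2 fold change changed sign for Dhcr7 (0.0084) and Ugt8a (0.0556), and with no filter on low counts for Acly (−0.0079) and Elovl5 (−0.0053). Of the 35 genes, 12 kept their sign under all 12 alternatives, and none changed sign under another scaling. For the other 23, leaving out each library in turn gave log2 fold changes of −0.064 to 0.069 for Acly, −0.46 to 0.029 for Cyp51, −0.20 to 0.022 for Degs1, −0.29 to 0.21 for Dhcr7, −0.22 to 0.094 for Ebp, −0.077 to 0.23 for Elovl1, −0.14 to 0.084 for Elovl5, −0.26 to 0.25 for Elovl6, −0.32 to 0.031 for Fa2h, −0.80 to 0.15 for Fasn, −0.25 to 0.0797 for Fdft1, −0.17 to 0.10 for Fdps, −0.42 to 0.033 for Hmgcs1, −0.28 to 0.0077 for Insig1, −0.077 to 0.18 for Insig2, −0.20 to 0.18 for Mvd, −0.057 to 0.027 for Scap, −0.50 to 0.0092 for Scd1, −0.17 to 0.12 for Sqle, −0.056 to 0.37 for Srebf1, −0.18 to 0.019 for Srebf2, −0.15 to 0.23 for Tm7sf2, −0.29 to 0.22 for Ugt8a. All 23 of these had an edgeR adjusted p of at least 0.507 in every such fit. The cause of these changes was not tested. The lowest count of any of the 35 in a library was 961.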
